A study of Mus musculus with 28 samples.

Results

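The Sox genes encode transcription factors that bind DNA through a shared HMG box, and 10 of them that are known from neural and sensory progenitors are described here across 7 inducible mouse embryonic stem cell (ESC) lines. They were chosen by name: Sox1, Sox2 and Sox3 of subgroup SoxB1, Sox21 of SoxB2, Sox4, Sox11 and Sox12 of SoxC, and Sox8, Sox9 and Sox10 of SoxE. All 10 are among the 19421 genes of the expression table, and all 10 were among the 16837 genes that were tested, those reaching 10 normalized counts in 2 or more libraries. Each line carries a Dox-inducible cassette for Atoh1 (iAtoh1), Gfi1 (iGfi1), Pou4f3 (iPou4f3), Gfi1 with Atoh1 (iG+A), Gfi1 with Pou4f3 (iG+P), Pou4f3 with Atoh1 (iP+A) or all 3 factors (iGPA), in the A2loxCre parental line and with a Venus reporter.

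Embryoid bodies (EBs), aggregates in which ESCs differentiate without LIF, were left untreated (Ctrl) or received 2 µg/ml of doxycycline (Dox) for 48 h from day 4, and RNA was taken on day 6. Every line gave 2 Ctrl and 2 Dox libraries, 28 in all, and per the series record the replicates of a line are separate clones of it. Dox libraries come from Venus+ cells collected by flow sorting, and Ctrl libraries from whole untreated EBs, so Dox and sorting cannot be told apart within a line. A difference between the Dox effects of 2 lines has sorted and unsorted libraries on both sides, and it carries the untreated levels of both lines as well. In bulk RNA of this kind, fewer cells that express a gene and less RNA per cell cannot be told apart.

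SoxB1 factors keep neural progenitors undifferentiated, and Sox2 is also required in pluripotent cells and in the sensory patches of the inner ear, where its level falls as hair cells (HCs) mature. SoxC factors are known from precursors that leave the cell cycle, as in neuronal differentiation. SoxE factors act in neural crest, glia and cartilage, and Sox9 and Sox10 are known from the otic vesicle, with Sox10 kept in supporting cells.

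No Sox gene is carried by the cassettes, and the levels of the induced factors followed the labels. Atoh1 reached 12816 to 21242 normalized counts in the 8 Dox libraries whose line carries it and 14.3 to 32.5 in the 6 Dox libraries of the other lines. The corresponding ranges were 8119 to 12487 and 49.7 to 113 for Gfi1, and 4694 to 19883 and 27.7 to 101 for Pou4f3. Estimated depth was 30.4 to 48.0 M reads per library. Differences below are log2 fold changes on the scale of log2(normalized count + 1), which understates the change of genes with few counts, with the standard error (SE) and the adjusted p-value of limma fitted over all genes. A gene is said to have risen or fallen at an adjusted p under 0.05, and to be past the threshold if the log2 fold change was also at least 1.5 in either direction. Normalized counts are not divided by transcript length, so levels are compared between libraries and not between genes.

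The promoters of 4 members are shown because Sox1 and Sox2, of the same subgroup, passed in opposite directions in iG+A, whereas Sox4 and Sox11 passed in the same direction in iAtoh1, iGfi1 and iP+A. Each sequence is the 250 bases before the RefSeq start of the gene (GRCm38.p6), 5′ to 3′ on the strand of the gene, and capitals mark the E-box CANNTG, the kind of motif that Atoh1 and other bHLH factors bind, and CCAAT, both searched on either strand.
Sox1 (chr8:12395269-12395518, + strand): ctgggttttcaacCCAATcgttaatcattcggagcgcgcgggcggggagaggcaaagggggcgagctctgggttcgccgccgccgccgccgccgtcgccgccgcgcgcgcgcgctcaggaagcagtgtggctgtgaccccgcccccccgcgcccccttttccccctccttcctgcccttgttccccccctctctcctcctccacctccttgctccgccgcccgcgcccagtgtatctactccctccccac
Sox2 (chr3:34649745-34649994, + strand): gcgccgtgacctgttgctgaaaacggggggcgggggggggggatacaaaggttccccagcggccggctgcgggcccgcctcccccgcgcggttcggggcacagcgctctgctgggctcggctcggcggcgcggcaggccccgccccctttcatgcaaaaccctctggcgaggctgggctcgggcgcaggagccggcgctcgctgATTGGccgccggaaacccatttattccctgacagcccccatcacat
Sox4 (chr13:28953700-28953949, - strand): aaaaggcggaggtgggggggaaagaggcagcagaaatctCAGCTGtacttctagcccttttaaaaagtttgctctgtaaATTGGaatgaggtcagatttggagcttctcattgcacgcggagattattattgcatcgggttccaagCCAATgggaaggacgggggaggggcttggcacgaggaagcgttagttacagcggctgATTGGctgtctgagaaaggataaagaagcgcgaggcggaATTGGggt
Sox11 (chr12:27342719-27342968, - strand): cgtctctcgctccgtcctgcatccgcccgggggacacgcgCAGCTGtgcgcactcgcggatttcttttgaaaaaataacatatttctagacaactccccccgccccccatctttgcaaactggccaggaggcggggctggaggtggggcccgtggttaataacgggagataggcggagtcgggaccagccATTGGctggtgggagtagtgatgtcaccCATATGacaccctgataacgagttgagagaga

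Sox4 and Sox11 each held 1 CAGCTG, the E-box spelling CAGCTG being a subset of CANNTG, and 13.1% of 32544 RefSeq promoters of this length held it. Sox11 held a further CANNTG, and the Sox1 and Sox2 windows held none, against 66.2% of promoters with at least 1. CCAAT occurred 4 times in the Sox4 window and 1 time in each of the other 3, and 33.8% of promoters held it. ACAAAG, a spelling that Sox proteins bind, occurred 1 time in the Sox2 window and in 16.5% of promoters. AAATCA, the core that Gfi1 is known to bind, was in none of these windows and in 12.3% of promoters. Sox21, Sox12 and Sox8 also matched the promoter table, and their windows held 0, 1 and 1 CANNTG. Such matches describe the letters of a window and say nothing about binding.

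In the NCBIM37 annotation (the mm9 assembly, which the expression table also used), Sox2 lies at chr3:34548927-34551383 on the + strand, inside the same-strand Sox2ot, and Sox3 at chrX:58144545-58146605 on the - strand. Sox21 lies at chr14:118632454-118636252 and Sox4 at chr13:29040788-29045582, both on the - strand and each overlapped by a predicted gene on the + strand. Reads of overlapping genes could be shared, since no source used here states that the quantification used strand. Sox11 (chr12:28025562-28027574), Sox12 (chr2:152219347-152223782), Sox8 (chr17:25702837-25707631) and Sox10 (chr15:78985343-78994920) are on the - strand, and Sox9 (chr11:112643538-112649074) is on the + strand.

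**Figure D1:**
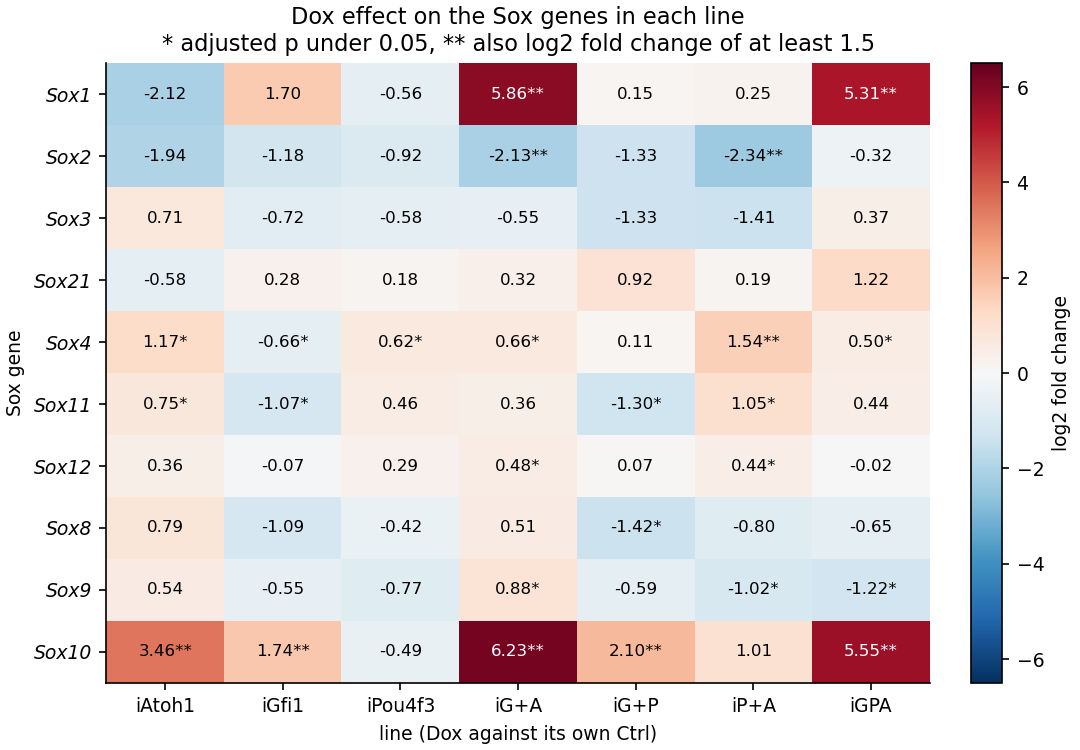
Log2 fold change of each Sox gene (rows) between Dox and Ctrl libraries of each line (columns), from limma over all genes; colour gives the same value as the number, 1 star an adjusted p under 0.05 and 2 stars a log2 fold change of at least 1.5 as well. Sox1 stood out in iG+A (5.86) and iGPA (5.31) and Sox10 in iG+A (6.23), iGPA (5.55) and iAtoh1 (3.46), while Sox2 was negative throughout and Sox12 stayed between -0.07 and 0.48.

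The first question was which members changed with each combination of factors. Of the 70 values (10 members in 7 lines), 8 were past the threshold upward and 2 downward. The upward ones were Sox10 in 5 lines, Sox1 in 2 lines and Sox4 in 1 line, and both downward ones were Sox2. By line, 1 of the 10 members was past the threshold in iAtoh1, where 5.40% of all tested genes were, and 1 in iGfi1, against 4.82%. In iPou4f3 limma put 0 members past the threshold, against 2.08% of all genes, and 2 members had an unadjusted p under 0.05. In iG+A 3 members were past it (12.3% of all genes), 1 in iG+P (10.5%), 2 in iP+A (7.29%) and, with all 3 factors, 2 in iGPA (14%). At 10 genes, the counts of all lines but iG+A and iP+A lay within 1 gene of what the share of all genes would give, and the members differed in which lines they moved.

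Without the limit on fold, 6 of 10 members changed in iG+A (41.3% of all genes), 5 in iP+A (24.9%) and 4 in iGPA (46.0%). The counts were 3 in iAtoh1 (23.1%), iGfi1 (26.5%) and iG+P (33.8%) alike, and 1 in iPou4f3 (4.72%). The median log2 fold change of the 10 members was 0.62 in iAtoh1 and 0.50 in iG+A, and -0.60 in iGfi1, while the median of all genes lay between -0.03 and 0.02 in every line. The members did not form a block that moved in 1 direction, and they are described by subgroup below.

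Sox1, an early marker of neural plate and a factor that holds cells as neural progenitors, was low in untreated EBs and high in cells with Gfi1 and Atoh1 together. In iG+A it was at 2.32 and 58.3 normalized counts in the Ctrl libraries and at 1158 and 569 in the Dox libraries. In iGPA it was at 11.4 and 9.82 in Ctrl and at 387 and 543 in Dox. These 4 Dox libraries were the highest of all 28, and the next highest library, iAtoh1 Ctrl replicate 1, was at 124.

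In the other lines no Dox library exceeded 118. In iGfi1 it was at 48.1 and 18 in Ctrl and 118 and 81.3 in Dox, without overlap. In iAtoh1 it was at 124 and 18 in Ctrl and 15.5 and 6.63 in Dox, lower and also without overlap. Untreated clones thus differed several-fold in some lines, and Sox1 had the widest spread of the 10 genes before Dox, from 2.32 to 124. In iPou4f3 (16.9 and 57.9 in Ctrl, 8.01 and 52.8 in Dox) and in iG+P (44.0 and 79.3, then 73.7 and 58.4) the groups overlapped. In iP+A Sox1 stayed between 3.06 and 8.27 in all 4 libraries.

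Sox1 rose by a log2 fold change of 5.86 (SE 1.09, adjusted p = 0.000335) in iG+A and 5.31 (SE 1.09, adjusted p = 0.000607) in iGPA. The value in iG+A depended on its low Ctrl library: it was between 3.78 and 7.93 over the alternatives tried, with an adjusted p of at most 0.0348. The values in iAtoh1 (-2.12, adjusted p = 0.174) and iGfi1 (1.70, adjusted p = 0.268) did not pass.

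Whether the lines differed was tested directly on the Dox effects. Adding Gfi1 to Atoh1 (iG+A against iAtoh1) gave a difference of 7.97 (SE 1.54, adjusted p = 0.00165), and adding it to Pou4f3 with Atoh1 (iGPA against iP+A) gave 5.06 (adjusted p = 0.0286). Adding Gfi1 to Pou4f3 gave 0.71 (SE 1.54, adjusted p = 0.805), and adding Atoh1 to Pou4f3 gave 0.81 (adjusted p = 0.876). Adding Atoh1 to Gfi1 with Pou4f3 gave 5.16 (adjusted p = 0.0293) and adding it to Gfi1 gave 4.16 (adjusted p = 0.0534), whereas the 3 additions of Pou4f3 lay between -1.55 and 2.36 and did not pass. The difference between iGPA and iAtoh1 was 7.43 (SE 1.54, adjusted p = 0.00202). The calls for Gfi1 on top of Atoh1 (5.89 to 10.05, adjusted p up to 0.0492) and for iGPA against iAtoh1 (5.36 to 8.79) held under every alternative, but that for Gfi1 on top of Pou4f3 with Atoh1 was lost without any of 7 of its 8 libraries (4.47 to 5.39) and that for Atoh1 on top of Gfi1 with Pou4f3 without any of its 8 (4.75 to 5.58). The latter was also lost, at 2.79 (adjusted p = 0.142), with all untreated libraries as one control. The Dox effect in iG+A exceeded the sum of those in iAtoh1 and iGfi1 by 6.28 (SE 1.89, unadjusted p = 0.00372), which did not pass after adjustment over all genes (adjusted p = 0.0526).

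**Figure D2:**
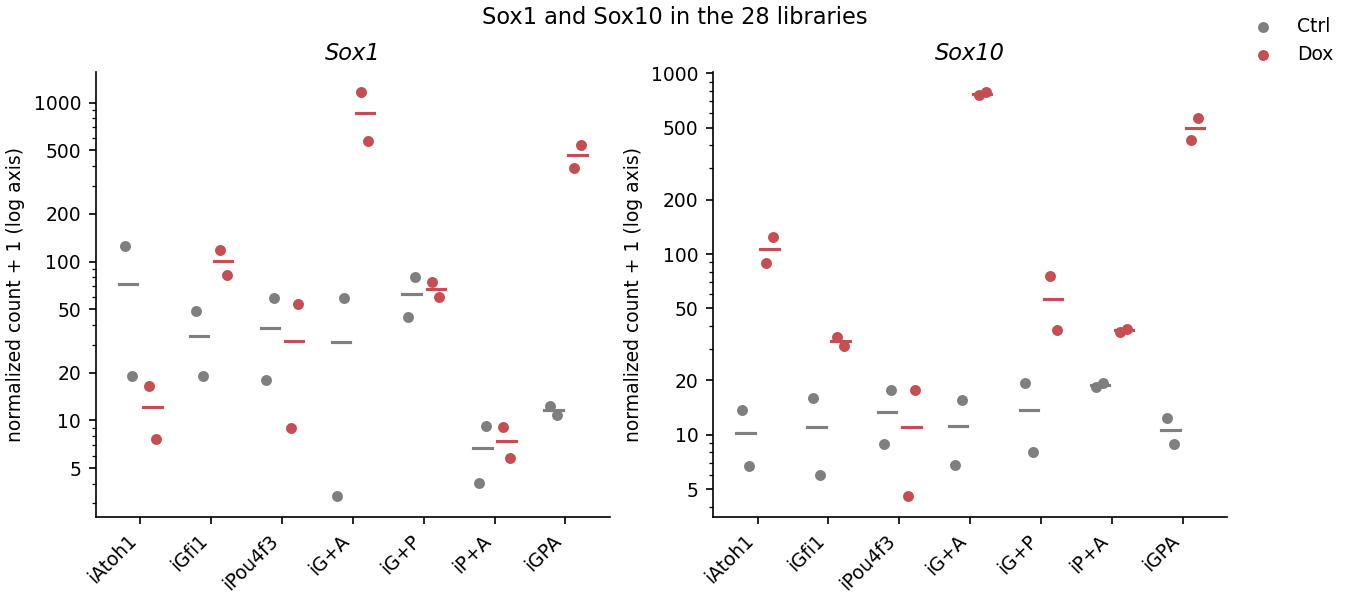
Normalized count plus 1 (log axis) of Sox1 and Sox10 in every library, by line (horizontal axis); points are libraries and short lines the group means, grey for Ctrl and red for Dox. Sox1 reaches 387 to 1158 only in the Dox libraries of iG+A and iGPA, whereas Sox10 is also above every Ctrl library in the Dox libraries of iAtoh1, iGfi1, iG+P and iP+A.

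Sox10, a SoxE factor required for neural crest derivatives and for glia, moved with the same pair of factors, but it also rose with Atoh1 alone. It was at 5.00 to 18.4 normalized counts in the 14 Ctrl libraries, a narrow range of few counts. In iG+A Dox it was at 756 and 782, against 5.80 and 14.6 in Ctrl. In iGPA Dox it was at 424 and 565, against 11.4 and 7.86. The group means of these conditions, of iAtoh1 Dox (87.8 and 124) and of iG+P Dox (74.6 and 36.8) were the 4 highest, in that order, and the first 3 did not overlap with the group that followed them.

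Below these, Sox10 was at 36.2 and 37.5 in iP+A Dox, against 17.3 and 18.4 in Ctrl, and at 33.8 and 29.9 in iGfi1 Dox, against 15.0 and 5.00. Both groups lay above every Ctrl library. In iPou4f3 the Dox libraries were at 3.56 and 16.6 and overlapped with Ctrl at 7.90 and 16.7.

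The log2 fold changes of Sox10 were 6.23 (SE 0.63, adjusted p = 4.46e-07) in iG+A, 5.55 (adjusted p = 1.07e-06) in iGPA and 3.46 (adjusted p = 0.000648) in iAtoh1, and these calls held under every alternative. Smaller rises in iG+P (2.10, adjusted p = 0.014) and iGfi1 (1.74, adjusted p = 0.0468) passed but depended on 1 library or setting. Without iG+P Ctrl replicate 2 the value in iG+P was 1.46 (adjusted p = 0.164) and without iG+P Dox replicate 1 it was 1.60 (adjusted p = 0.137). In iGfi1 it was 1.04 (adjusted p = 0.373) without Ctrl replicate 2, 1.66 (adjusted p = 0.186) without Dox replicate 1 and 1.83 (adjusted p = 0.104) without Dox replicate 2. In iP+A (1.01, adjusted p = 0.262) and iPou4f3 (-0.49, adjusted p = 0.745) it did not pass.

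Between lines, adding Gfi1 raised the Dox effect on Sox10 by 2.77 on top of Atoh1 (SE 0.88, adjusted p = 0.0407) and by 4.54 on top of Pou4f3 with Atoh1 (adjusted p = 0.00159), with 2.59 on top of Pou4f3 (adjusted p = 0.0501) just missing. Adding Atoh1 raised it by 4.48 on top of Gfi1 (adjusted p = 0.00141) and by 3.45 on top of Gfi1 with Pou4f3 (adjusted p = 0.0128), with 1.49 on top of Pou4f3 (adjusted p = 0.485). Adding Pou4f3 to Atoh1 gave -2.45 (SE 0.88, adjusted p = 0.129), which did not pass. The excess of iG+A over the sum of iAtoh1 and iGfi1 was 1.03 (SE 1.08, adjusted p = 0.604). Over the 30 tests of an excess (10 members, 3 pairs of factors) limma called 0, where 6.68%, 0.267% and 0.546% of all genes passed for iG+A, iG+P and iP+A, and 1, that of Sox1 in iG+A, had an unadjusted p under 0.05. The call for Gfi1 on top of Atoh1 was lost in 9 of 18 alternatives, without any of 6 of its 8 libraries (2.17 to 3.02) and, at adjusted p = 0.0506, 0.0509 and 0.0642, with no trend, with a pseudocount of 0.5 and with only the groups compared. That for Atoh1 on top of Gfi1 with Pou4f3 was lost without iG+P Ctrl replicate 1 (2.81), iG+P Dox replicate 2 (2.95) or iGPA Ctrl replicate 2 (3.21).

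Sox1 and Sox10 had a Pearson correlation of 0.67 on the log2 scale over the 28 libraries, which share lines and clones. The genes whose levels were most like those of Sox10 were Ngfr (r = 0.959), a neurotrophin receptor, the Notch ligand gene Jag2 (0.958) and Art5 (0.957). For Sox1 they were Rab37 (0.898), Aldh1a2 (0.877), which encodes an enzyme of retinoic acid synthesis, and Ica1 (0.873).

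Neural progenitor genes were set beside Sox1. Of 14 such genes, all tested, limma put 6 past the threshold upward and 1 downward for iG+A (all genes 7.35% up and 4.95% down), with a median of 1.37. In iGPA 4 were up and 1 down (all genes 8.65% and 5.31%), with a median of 1.17, and in iAtoh1 5 were up and 1 down (2.89% and 2.52%), with a median of 1.10. In the remaining lines, where Sox1 did not pass, as in iAtoh1, the counts were 4 up and 1 down in iG+P (5.16% and 5.36%, median 0.08), 1 and 1 in iGfi1 (2.15% and 2.67%, median -0.14) and 3 and 0 in iP+A (4.70% and 2.58%, median 0.67), with 2 lower there at an unadjusted p under 0.05. In iPou4f3 limma called 0 (1.47% and 0.606%, median 0.05), with 1 higher and 2 lower at an unadjusted p under 0.05. In iGPA Hes5, a target of Notch signalling, rose from 3.49 and 0.982 normalized counts to 179 and 268 (6.20, adjusted p = 1.66e-05). Lfng, which modifies Notch, rose by 4.69 and the growth factor gene Ptn by 3.40, whereas Slc1a3, a glutamate transporter of radial glia, fell by 3.41 on the log2 scale.

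Neural crest and glial precursor genes were set beside Sox10. Of 12 listed, 10 were tested, and in iG+A limma put 0 of them past the threshold upward (7.35% of all genes), with 1 higher at an unadjusted p under 0.05, and 1 downward (4.95%). In iGPA 1 was up (8.65% of all genes) and 2 down (5.31%). In iAtoh1 1 was up (2.89%) and limma called 0 down (2.52%), with 4 higher and 0 lower at an unadjusted p under 0.05. In iG+P and iGfi1, where Sox10 also rose, limma called 0 up, with 1 and 0 higher at an unadjusted p under 0.05, and 4 (5.36% of all genes) and 2 (2.67%) down. In iP+A, where Sox10 did not pass, 2 were up (4.70%). The medians were 0.04 in iG+A, -0.31 in iGPA, 0.47 in iAtoh1, -1.21 in iG+P, -0.61 in iGfi1 and 0.12 in iP+A. In iGPA Snai2, a gene of delaminating crest cells, fell from 4406 and 3950 to 652 and 521 (-2.84, adjusted p = 3.73e-05) and Pdgfra fell by 1.96 on the log2 scale. Foxd3, an early crest factor, rose by 1.99 (adjusted p = 0.0281) from 1.75 and 0.982 to 13.3 and 5.04, a level of few counts.

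Sox2, the SoxB1 factor of pluripotent cells and sensory progenitors, was lower in Dox than in Ctrl libraries. In iG+A it was at 576 and 1160 in Ctrl and at 102 and 339 in Dox, and in iP+A at 882 and 4276 in Ctrl and at 252 and 584 in Dox. In iAtoh1 it was at 3119 and 2035 in Ctrl and at 864 and 494 in Dox. In these 3 lines no Dox library reached a Ctrl library of the same line.

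The remaining lines gave smaller differences. Sox2 was at 1384 and 1393 in iGfi1 Ctrl and at 826 and 456 in Dox. In iPou4f3 it was at 801 and 1328, then 430 and 692, and in iG+P at 972 and 1365, then 682 and 307. Again no Dox library reached a Ctrl library of its line. In iGPA it was at 866 and 228 in Ctrl and at 403 and 315 in Dox, so that the groups overlapped. Ctrl libraries alone covered an 18.8-fold range, from iGPA Ctrl replicate 2 at 228 to iP+A Ctrl replicate 2 at 4276.

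Sox2 fell in iG+A (-2.13, SE 0.72, adjusted p = 0.0246) and iP+A (-2.34, SE 0.72, adjusted p = 0.0237). In iAtoh1 (-1.94, adjusted p = 0.0597), iGfi1 (-1.18, adjusted p = 0.244) and iG+P (-1.33, adjusted p = 0.173) it did not pass, but all 3 passed when the replicate number was a block within the line, at adjusted p = 0.00447, 0.046 and 0.0233 in that order. In iPou4f3 (-0.92, adjusted p = 0.555) and iGPA (-0.32, adjusted p = 0.753) it passed in neither fit. Without iP+A Ctrl replicate 2 the value in iP+A was -1.20 (adjusted p = 0.334), and without iP+A Dox replicate 1 it was -1.73 (adjusted p = 0.218). In iG+A it was -1.27 (adjusted p = 0.262) without Dox replicate 1 and -1.62 (adjusted p = 0.169) without Ctrl replicate 2. No difference between lines passed for Sox2: the 9 single additions lay between -1.42 and 2.02, each with an SE of 1.02.

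Most pluripotency genes listed varied with Sox2 across the libraries. The summed level of 12 such genes was 12413 to 44494 normalized counts in the Ctrl libraries and 12528 to 29754 in the Dox libraries, and 27 of 28 libraries had all 12 above 0, with 1 gene at 0 in iGPA Dox replicate 2. The sum was 44494 in iP+A Ctrl replicate 2 and 44363 in iAtoh1 Ctrl replicate 1, the 2 libraries with the highest Sox2. Over the 28 libraries Sox2 and this sum had r = 0.84 and rho = 0.85 on the log2 scale. Gene by gene, r with Sox2 was 0.60 to 0.94 for 11 of the 12 and -0.02 for Klf4. The genes most like Sox2 of all were L1td1 (r = 0.964), Fbxo15 (0.954) and B3gnt7 (0.947). Downward past the threshold, 7 of the 12 were called in iP+A (2.58% of all genes), 5 in iG+A (4.95%), 3 in iG+P (5.36%) and 5 in iGPA (5.31%). In iAtoh1 (2.52%), iGfi1 (2.67%) and iPou4f3 (0.606%) limma called 0, with 6, 2 and 4 lower at an unadjusted p under 0.05. In iGPA Tcl1 (-3.94), Dppa5a (-3.07), Utf1 (-2.63) and Nanog (-2.44) fell while Sox2 differed by -0.32. The part of remaining pluripotent cells in the level of Sox2 was not tested. Sox2ot, the transcript that spans Sox2, was at 2.44 to 56.1 in all libraries.

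**Figure D3:**
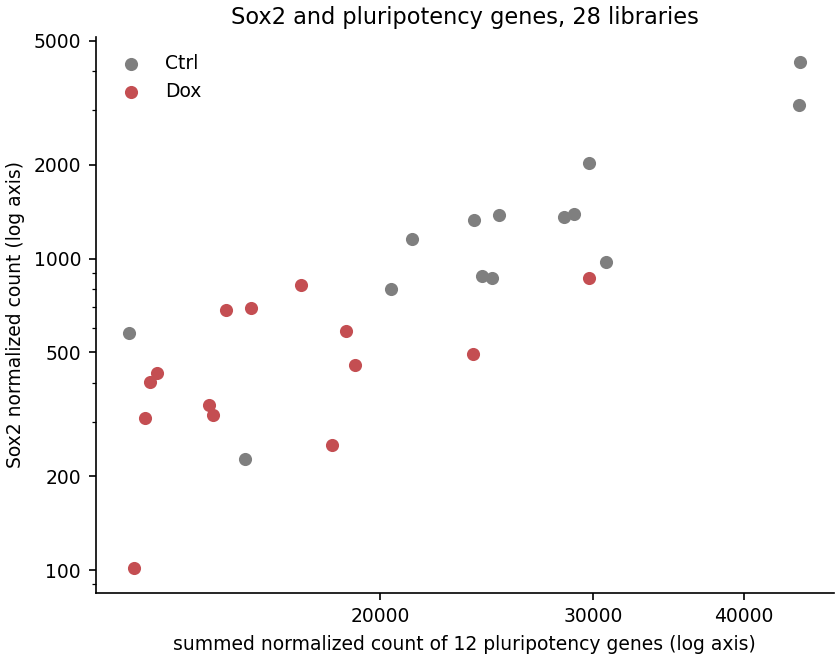
Sox2 (vertical axis, normalized count, log scale) against the summed normalized count of 12 pluripotency genes (horizontal axis, log scale) in the 28 libraries, grey for Ctrl and red for Dox. The points rise together (r = 0.84 on the log2 scale), the 2 Ctrl libraries with the highest sums (44363 and 44494) are the highest in Sox2, and iG+A Dox replicate 1 is the lowest at 102.

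Sox3, the X-linked SoxB1 gene, and Sox21, a SoxB2 factor that counters SoxB1 activity, were at low levels and did not pass in any line. Sox3 was at 33.4 to 190 normalized counts in Ctrl (median 78.2) and 24.8 to 202 in Dox (median 44.4), with log2 fold changes between -1.41 and 0.71. Its differences in iG+P (-1.33, adjusted p = 0.0587) and iP+A (-1.41, adjusted p = 0.0577) just missed and passed with the replicate block (adjusted p = 0.0116 and 0.011). In iG+P it was at 86.3 and 80.4 in Ctrl and 42.4 and 24.8 in Dox, and in iP+A at 65.4 and 190, then 37.1 and 46.0. These groups did not overlap. Sox3 was most like Icam1 (r = 0.869), the Nodal antagonist gene Lefty2 (0.862) and Spry4 (0.856), and its r with Sox2 was 0.70.

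Sox21 was at 10.4 to 102 in Ctrl (median 34.8) and 14.9 to 96.3 in Dox (median 44.6). In iGPA it was at 33.2 and 14.7 in Ctrl and 43.9 and 63.5 in Dox, a difference of 1.22 (adjusted p = 0.0988) that passed with the replicate block (adjusted p = 0.0384). The group with the highest mean was iG+P Dox, at 96.3 and 69.2 against 36.9 and 49.2 in Ctrl (0.92, adjusted p = 0.246), although the highest single library was iAtoh1 Ctrl replicate 1 at 102. The genes most like Sox21 were the epithelial genes Spint1 (r = 0.807) and Epcam (0.786), and Grb7 (0.751).

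Sox4 and Sox11 rose together where Atoh1 acted without Gfi1 and fell in iGfi1. The pair had r = 0.78 over the 28 libraries. Both are SoxC genes whose products are known to activate pan-neuronal genes. Sox4 was at 3908 and 3806 normalized counts in iAtoh1 Ctrl and at 7628 and 9886 in iAtoh1 Dox. In iP+A it was at 5349 and 3695 in Ctrl and at 13985 and 11942 in Dox, the highest of all libraries. In iGfi1 it was at 4405 and 4178 in Ctrl and lower, at 2476 and 2963, in Dox.

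In the lines with Gfi1 and a second factor the changes of Sox4 were small. It was at 2537 and 3416 in iG+A Ctrl and 4778 and 4537 in Dox, and at 3702 and 3589 in iGPA Ctrl and 5178 and 5155 in Dox. In iPou4f3 it was at 3807 and 3475, then 5919 and 5297. No Dox library of these 3 lines overlapped with its Ctrl libraries. In iG+P the groups overlapped, at 4070 and 3888 in Ctrl and 4895 and 3773 in Dox.

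Sox4 was past the threshold in iP+A (1.54, SE 0.17, adjusted p = 1.94e-06) and also rose in iAtoh1 (1.17, adjusted p = 6.78e-05). Smaller rises were measured in iG+A (0.66, adjusted p = 0.00402), iPou4f3 (0.62, adjusted p = 0.0382) and iGPA (0.50, adjusted p = 0.0195), and Sox4 fell in iGfi1 (-0.66, adjusted p = 0.00683). The calls in iAtoh1 and iP+A held under every alternative. Those in iPou4f3 and iGPA were lost without any of their 4 libraries, and that in iG+A was lost without Ctrl replicate 1 (0.45, adjusted p = 0.0848) and with all untreated libraries as one control (0.29, adjusted p = 0.122). That in iGfi1 was lost without Ctrl replicate 1 (-0.62, adjusted p = 0.05) or Dox replicate 1 (-0.53, adjusted p = 0.0974).

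Sox11 was at 6407 and 5616 in iAtoh1 Ctrl and 11358 and 9004 in Dox, and at 5197 and 5775 in iP+A Ctrl and 12088 and 10608 in Dox. In iGfi1 it went from 5852 and 6016 to 2633 and 3035, and in iG+P from 8443 and 6409 to 3382 and 2621. In all 4 lines Dox and Ctrl were apart, upward in the former pair and downward in the latter. In iPou4f3 (3524 and 5169, then 5486 and 6244) and iGPA (5385 and 3492, then 6132 and 5648) Dox was higher without overlap, and in iG+A (2502 and 4964, then 4428 and 4601) the groups overlapped.

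Sox11 rose in iP+A (1.05, SE 0.25, adjusted p = 0.00534) and iAtoh1 (0.75, adjusted p = 0.0392) and fell in iG+P (-1.30, adjusted p = 0.000568) and iGfi1 (-1.07, adjusted p = 0.00466). The rise in iAtoh1 was lost without any of its 4 libraries (0.59 to 0.92). Those of iGfi1 and iP+A were lost without Dox replicate 1 of the line (-0.97, adjusted p = 0.0575, and 0.95, adjusted p = 0.057). The value in iG+P was -0.79 (adjusted p = 0.0171) with all untreated libraries as one control. In iPou4f3 (0.46), iG+A (0.36) and iGPA (0.44) Sox11 did not pass. Sox4 and Sox11 thus differed in iG+P, where Sox11 fell and Sox4 was at 0.11 (adjusted p = 0.656), although no test of one gene against the other was made.

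**Figure D4:**
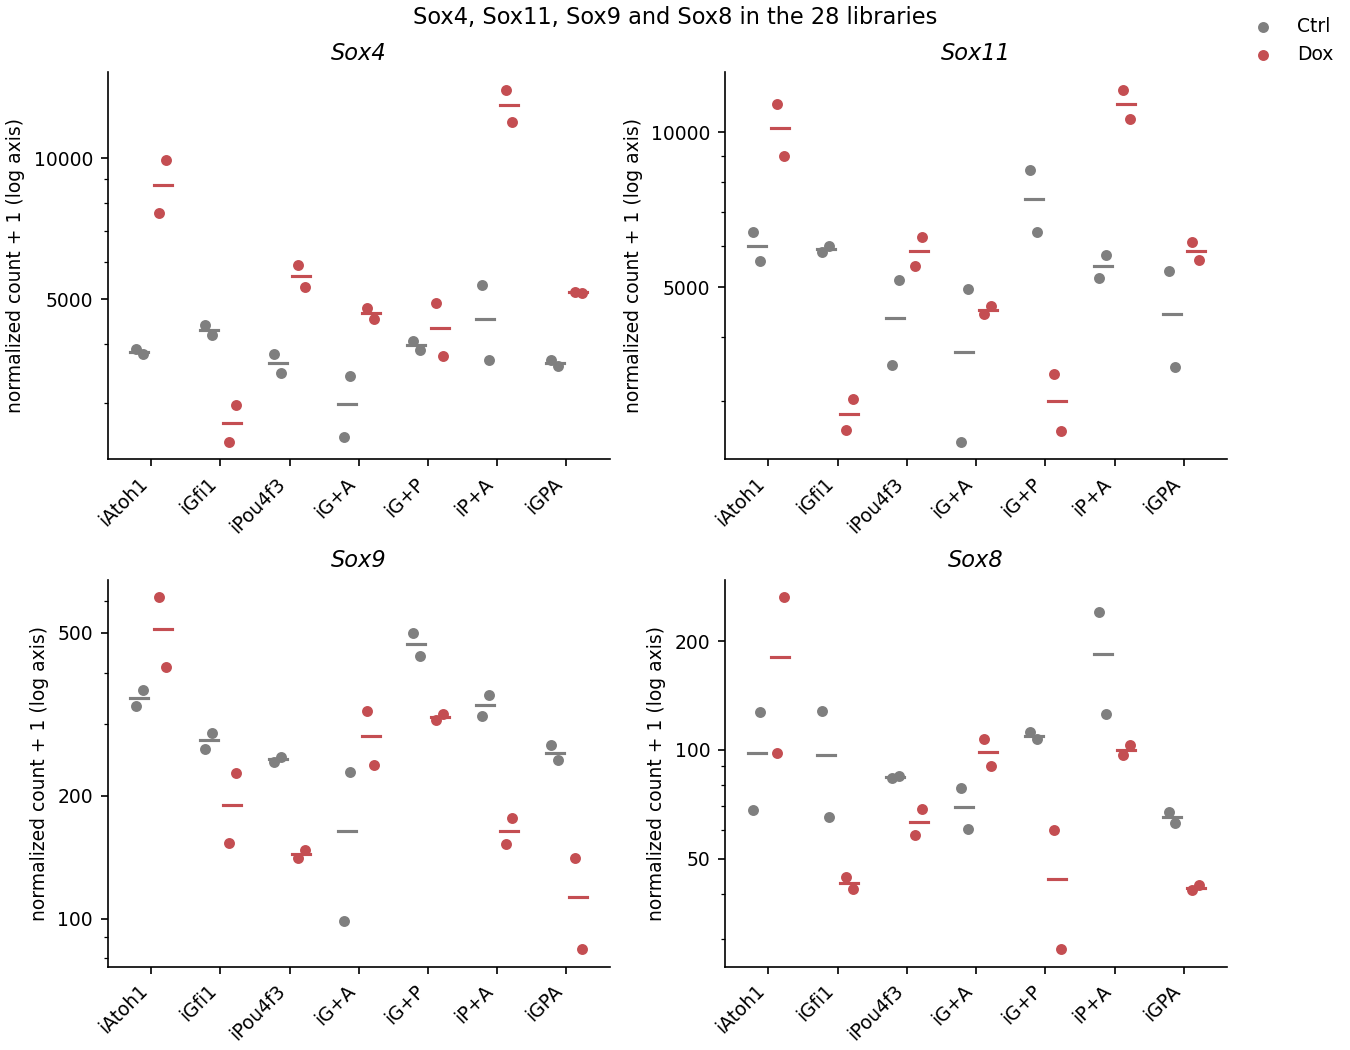
Normalized count plus 1 (log axis) of Sox4, Sox11, Sox9 and Sox8 in every library, by line; points are libraries and short lines the group means, grey for Ctrl and red for Dox. Sox4 and Sox11 are highest in the Dox libraries of iP+A and iAtoh1, Sox11 is low in those of iGfi1 and iG+P, and the group mean of Sox9 is lowest in iGPA Dox (libraries at 140 and 83.3).

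The additions showed opposite signs for the 2 factors. Averaged over its 3 additions, Gfi1 lowered the Dox effect on Sox11 (-0.92, SE 0.21, adjusted p = 0.00202) and Sox4 (-0.69, SE 0.14, adjusted p = 0.000697), and Atoh1 raised it for Sox11 (1.25, SE 0.21, adjusted p = 0.000175) and Sox4 (0.88, SE 0.14, adjusted p = 9.61e-05). These 4 calls held under every alternative. The largest single steps for Sox11 were Gfi1 on top of Pou4f3 (-1.76, adjusted p = 0.00228) and Atoh1 on top of Gfi1 with Pou4f3 (1.75, adjusted p = 0.00283). For Sox4 they were Atoh1 on top of Gfi1 (1.32, adjusted p = 0.000651) and Gfi1 on top of Pou4f3 with Atoh1 (-1.04, adjusted p = 0.00493). With all untreated libraries as one control, the Sox11 steps were -0.98 (adjusted p = 0.0424) and 0.98 (adjusted p = 0.048), and the first Sox4 step was 0.78 (adjusted p = 0.00649). Pou4f3 added 0.33 to the effect on Sox4 (adjusted p = 0.143) and 0.05 to that on Sox11 (adjusted p = 0.923).

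Genes of postmitotic neurons were set beside the SoxC genes. Of 14, all tested, 13 were past the threshold upward in iP+A (4.70% of all genes) and 11 in iGPA (8.65%), where 1 was past it downward (5.31%), with medians of 3.80 and 3.46. In iAtoh1 5 were up (2.89% of all genes) and 1 down (2.52%, median 0.85), and in iG+A 5 were up (7.35%) and 2 down (4.95%, median 0.71). In iPou4f3 3 were up (1.47%), with a median of 1.00 and 6 higher at an unadjusted p under 0.05. In iG+P 3 were up (5.16%) and 1 down (5.36%, median -0.07), and in iGfi1 limma called 0 up (2.15% of all genes), with 2 higher at an unadjusted p under 0.05, and 1 down (2.67%). In iGPA the microtubule protein gene Dcx rose from 5.24 and 6.88 to 323 and 306 (5.49, adjusted p = 1.82e-08), Nefl by 5.32, Nefm by 5.29 and Elavl4 by 4.93. In the same line Sox4 rose by 0.50 and Sox11 did not pass.

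Over the 28 libraries Sox4 was most like Mex3a (r = 0.941), Ehmt2 (0.930) and Grk3 (0.927), and Sox11 most like Ptprg (0.944), the neural RNA-binding protein gene Msi1 (0.939) and Tmeff1 (0.924). Msi1 is in the neural progenitor list used above.

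Sox12, the third SoxC gene, varied least of the 10 genes among untreated EBs, from 4398 to 6928 normalized counts (median 5734), and was at 4954 to 8315 in Dox libraries (median 6309). It rose in iG+A (0.48, SE 0.16, adjusted p = 0.0195), from 4899 and 5046 to 7031 and 6856, and in iP+A (0.44, adjusted p = 0.047), from 6928 and 5400 to 8315 and 8282. Both calls were lost on leaving out libraries, that in iG+A without any of its 4 and that in iP+A without any but Ctrl replicate 1. In iAtoh1 its 0.36 (adjusted p = 0.103) passed with the replicate block (adjusted p = 0.0149). Sox12 was most like Selenon (r = 0.885), Zfp768 and Vash2 (both 0.881).

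Sox9, a SoxE factor of cartilage, glial progenitors and the otic vesicle, was lower where Pou4f3 was induced together with Atoh1. It was at 312 and 351 normalized counts in iP+A Ctrl and 151 and 175 in Dox, and at 265 and 243 in iGPA Ctrl and 140 and 83.3 in Dox. In iPou4f3 it was at 241 and 248 in Ctrl and 140 and 146 in Dox. In none of these lines did the groups overlap.

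Sox9 was higher in Dox libraries of iAtoh1 (331 and 361 in Ctrl, 611 and 412 in Dox) and iG+A (97.8 and 228 in Ctrl, 321 and 237 in Dox). It was lower in those of iGfi1 (259 and 284, then 152 and 226) and iG+P (500 and 438, then 305 and 315). The untreated level itself ranged from 97.8 to 500, and iG+A Ctrl replicate 1, the lowest, was also the lowest untreated library for 4 more members, Sox1, Sox21, Sox4 and Sox11.

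Sox9 fell in iGPA (-1.22, SE 0.31, adjusted p = 0.00328) and iP+A (-1.02, SE 0.31, adjusted p = 0.0205). Its rise in iG+A (0.88, adjusted p = 0.0283) rested on that low Ctrl library, being 0.28 (adjusted p = 0.506) without it, and was also lost without Dox replicate 1 (0.66, adjusted p = 0.189). The value in iGPA was -0.85 (adjusted p = 0.0682) without Dox replicate 2, and that in iP+A did not pass without any of its 4 libraries (-1.13 to -0.92) or with all untreated libraries as one control (-0.78, adjusted p = 0.0787). In iPou4f3 (-0.77, adjusted p = 0.182), iAtoh1 (0.54), iGfi1 (-0.55) and iG+P (-0.59) Sox9 did not pass.

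Averaged over its 3 additions, Pou4f3 lowered the Dox effect on Sox9 by -1.24 (SE 0.25, adjusted p = 0.00309), a call that held under every alternative but fell in size to -0.74 (adjusted p = 0.00472) with Dox libraries only. Without the replicate block, Sox9 was the only member for which the mean of the Pou4f3 additions passed. The steps were -2.11 on top of Gfi1 with Atoh1 (adjusted p = 0.00751), -1.56 on top of Atoh1 (adjusted p = 0.0431, and 0.0502 with the replicate block) and -0.05 on top of Gfi1 (adjusted p = 0.975). The step on top of Atoh1 was lost without any of 7 of its 8 libraries (-1.67 to -1.28), and that on top of Gfi1 with Atoh1 without iGPA Dox replicate 2 (-1.74, adjusted p = 0.0516). With all untreated libraries as one control the latter was -1.35 (adjusted p = 0.0712), and with only the groups compared its adjusted p was 0.168. Atoh1 on top of Gfi1 raised the effect on Sox9 by 1.43 (adjusted p = 0.0214), a call lost in 7 of 18 alternatives, among them 0.82 (adjusted p = 0.141) without iG+A Ctrl replicate 1 and 0.57 (adjusted p = 0.376) with the common control. The difference between iGPA and iAtoh1 was -1.76 (SE 0.44, adjusted p = 0.00731). Sox9 was most like Snhg12 (r = 0.807), Mettl2 (0.805) and the desmosome gene Dsp (0.795).

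Cartilage genes were set beside Sox9, which is known to activate Col2a1. Of 9, all tested, 1 passed the threshold in each direction for iGPA (8.65% of all genes up and 5.31% down), with a median of 0.05. In iP+A, where Sox9 also fell, 1 was up and 2 down (4.70% and 2.58%), and in iG+P 2 were up and 3 down (5.16% and 5.36%). In iGPA Col2a1 rose from 267 and 179 to 2121 and 2458 (3.38, adjusted p = 4.77e-05), while Sox9 fell, and Matn3 fell by 2.67 on the log2 scale.

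Sox8, the third SoxE gene, was at 59.4 to 240 normalized counts in Ctrl (median 83.0) and 27.1 to 264 in Dox (median 63.2). It fell in iG+P (-1.42, SE 0.44, adjusted p = 0.0188), from 111 and 106 to 59.0 and 27.1, a call lost without Ctrl replicate 1 (-1.39, adjusted p = 0.0846), Ctrl replicate 2 (-1.44, adjusted p = 0.0677) or Dox replicate 2 (-0.87, adjusted p = 0.237). In iGfi1 (127 and 64.1 in Ctrl, 43.5 and 40.2 in Dox) its -1.09 (adjusted p = 0.0767) passed with the replicate block (adjusted p = 0.0235). In iGPA it was at 66.4 and 61.9 in Ctrl and at 39.9 and 41.4 in Dox (-0.65, adjusted p = 0.25). The mean of the Pou4f3 additions was -1.02 (SE 0.36, adjusted p = 0.0799, and 0.0231 with the replicate block). Sox8 was most like G6pc3 (r = 0.853), Pdgfc (0.830) and Cpt1c (0.826).

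**Figure D5:**
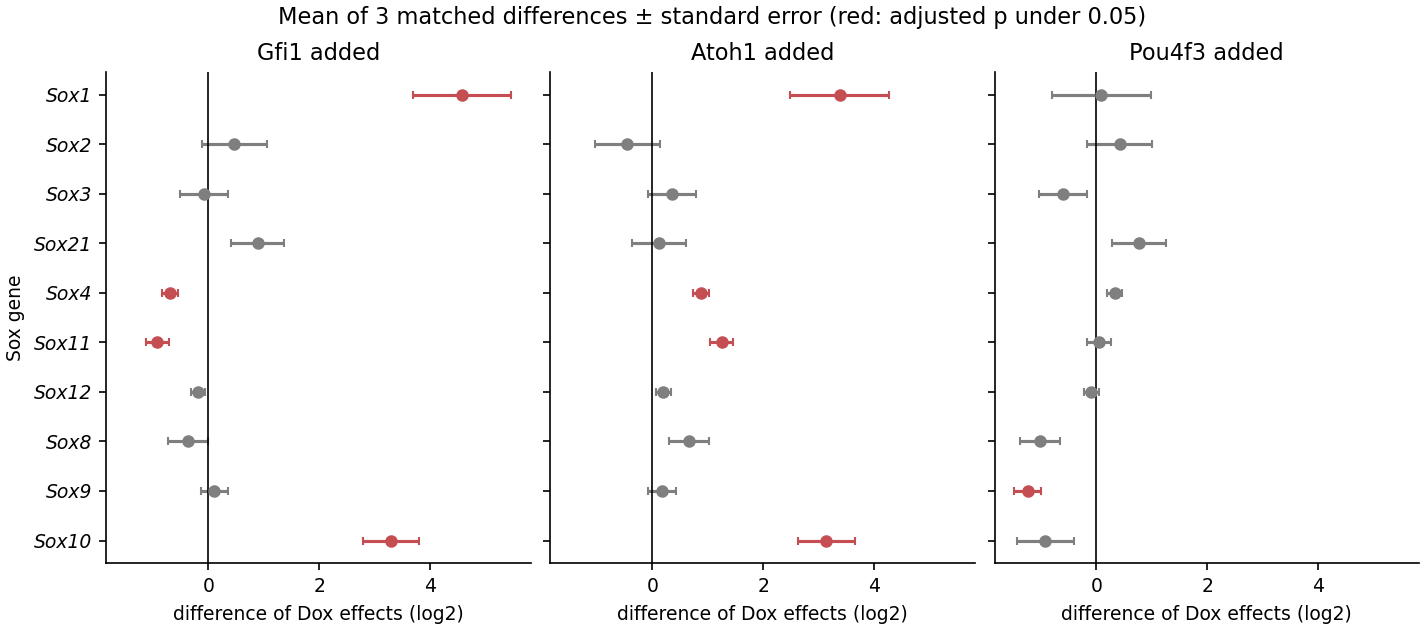
Mean of the 3 matched differences between Dox effects (horizontal axis, log2, points) with its standard error (bars) for each Sox gene when Gfi1, Atoh1 or Pou4f3 is added to the other factors; red points have an adjusted p under 0.05. Gfi1 and Atoh1 share the direction for Sox1 (4.58 and 3.38) and Sox10 (3.30 and 3.14) and differ in it for Sox4 and Sox11, and Sox9 is the only red point for Pou4f3 (-1.24).

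Sox2, Sox3, Sox21, Sox12 and Sox8 passed for no mean addition without the replicate block. For the other members the additions fell into 3 patterns. Averaged over their 3 additions, Gfi1 and Atoh1 each raised the Dox effect on Sox1, by 4.58 (SE 0.89, adjusted p = 0.000569) and 3.38 (adjusted p = 0.00745), and on Sox10, by 3.30 (SE 0.51, adjusted p = 6.43e-05) and 3.14 (adjusted p = 0.000148). On top of Pou4f3 alone, the steps for Sox1 were 0.71 for Gfi1 (adjusted p = 0.805) and 0.81 for Atoh1 (adjusted p = 0.876), and neither passed. For Sox4 and Sox11 they had opposite signs, and for Sox9 the mean passed for Pou4f3 alone. For Gfi1 and for Atoh1 2 of 10 members were past the threshold, against 7.91% and 5.13% of all genes, and for Pou4f3 limma put 0 past it, against 2.72%, with 3 at an unadjusted p under 0.05. At the adjusted p alone the counts were 4 of 10 for Gfi1 (34.0% of all genes), 4 for Atoh1 (30.6%) and 1 for Pou4f3 (11.0%). Computed from the Dox libraries without the Ctrl libraries, the mean Atoh1 addition for Sox1 was 1.41 (adjusted p = 0.0808), so this call rested on the untreated levels. Among the 9 single additions, Gfi1 changed the Dox effect of 2 members on top of Atoh1 (15.7% of all genes), 1 on top of Pou4f3 (17.9%) and 3 on top of Pou4f3 with Atoh1 (18.3%). Atoh1 did so for 4 on top of Gfi1 (26.5%), 1 on top of Pou4f3 (3.01%) and 3 on top of Gfi1 with Pou4f3 (15.7%). Pou4f3 did so for 1 on top of Atoh1 (5.46%) and 1 on top of Gfi1 with Atoh1 (4.19%), and on top of Gfi1 limma called 0 (3.45%), with 1 at an unadjusted p under 0.05. Between iGPA and iAtoh1 2 members differed (20%). The 3 mean additions use the same libraries and are not independent of each other.

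Genes of otic and sensory progenitors were set beside the SoxE and SoxB1 members. Of 12 listed, 11 were tested, and for iG+A 5 passed the threshold upward (7.35% of all genes) and 1 downward (4.95%), with a median of 1.32. In iGPA 4 were up (8.65%), with a median of 0.23, and limma called 0 down (5.31%), with 0 lower at an unadjusted p under 0.05. In iP+A 3 were up (4.70%) and 1 down (2.58%, median 0.53). In iG+P 2 were up (5.16%) and limma called 0 down (5.36%, median 0.29), with 2 lower at that p. In iAtoh1 limma called 0 up (2.89%), with 3 higher at that p, and 1 down (2.52%, median 0.03). In iGfi1 1 was up (2.15%) and 0 down (2.67%, median -0.31), with 0 lower at that p. In iPou4f3 limma called 0 (1.47% and 0.606%, median 0.1), with 2 higher at that p. In iGPA Isl1 rose from 475 and 226 to 7397 and 7381 (4.49, adjusted p = 2.29e-07), and Eya1 by 3.06 and Prox1 by 1.98, each a gene of the early otic or sensory lineage. Endoderm, endothelium and blood genes, which mark other cells of an EB, had a summed level of 83122 to 493710 in Ctrl and 33094 to 354768 in Dox libraries. Most of it came from Hbb-bh1 and Hba-x, at 179528 and 65446 of 269689 in iGPA Ctrl replicate 1. In iGfi1 the sum was 194834 to 269623 in Ctrl and 195249 to 354768 in Dox. In iGPA 4 of 12 were past the threshold downward (5.31% of all genes) and 0 upward (8.65%), where 1 was higher at an unadjusted p under 0.05. Hbb-bh1 (-4.43), Ttr (-3.30), Hba-x (-3.13) and Pecam1 (-1.93) fell there. Downward, limma called 6 in iAtoh1 (2.52%), 5 in iG+P (5.36%), 4 in iG+A (4.95%) and 4 in iP+A (2.58%). In iGfi1 (2.67%) and iPou4f3 (0.606%) it called 1 each, and 0 were upward in these lines. The part of this shift in the Sox values was not tested.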

How the data were processed

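Poly(A) RNA-seq libraries (KAPA mRNA HyperPrep) were made for 28 samples. The authors trimmed reads with cutadapt and quantified them with Kallisto against UCSC knownGene transcripts (mm9), with tximport for gene totals and DESeq2 for normalization. The deposited values are log2(normalized count + 1) per Entrez gene, which corrects for depth but not for length. Whole reads could not be recovered (70.6% to 79.4% of low values were whole multiples of 1 read within 0.05), so no count test was run.

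Of 19421 genes 19314 were named from RefSeq (GRCm38.p6). The 16837 genes past the filter were fitted in 14 groups with limma 3.58.1 (R 4.3.3, variance trend, 14 residual degrees of freedom), with Benjamini-Hochberg adjustment within each contrast and the limits of the study's methods. A matched addition is the Dox effect of a line minus that of the line lacking 1 factor. The contrasts for an excess over a sum were added after the values were seen. The script was tested on simulated data.

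Equal replicate numbers were taken as the same clone with and without Dox, which the series record does not state outright. Deviations of such pairs correlated by 0.103 to 0.246 in the 7 lines, and a fit with this block (7 residual degrees of freedom) was run.

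Members, lists and tests were chosen with earlier results of these data known. Named genes were the members, 9 other Sox genes, at most 4 genes per list by size of change in iGPA among those past the threshold (1 of which is not reported here), the 3 genes most correlated with each member, and the transgenes. The alternatives were pseudocounts of 0.5 and 5, no filter or one of 50, other scalings, the block, only the groups compared, no trend, all 14 untreated libraries as one control, Dox libraries only, other fold limits and each library left out.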

Additional observations from a re-analysis of the deposited data

Results flagged for a closer look

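Tests of the difference between the Dox effects of 2 lines (10 members, 10 differences) passed for 13 values with a log2 size of at least 1.5, and they concern 4 members. By the same rule, 271 (Atoh1 on top of Pou4f3) to 1521 (iGPA against iAtoh1) of the 16837 tested genes passed per difference. For Sox1 the difference was 7.97 when Gfi1 was added to Atoh1 (5.89 to 10.05 over the alternatives), 5.06 when it was added to Pou4f3 with Atoh1, 5.16 when Atoh1 was added to Gfi1 with Pou4f3, and 7.43 between iGPA and iAtoh1. For Sox10 the differences were 2.77 and 4.54 for Gfi1 on top of Atoh1 and on top of Pou4f3 with Atoh1, and 4.48 and 3.45 for Atoh1 on top of Gfi1 and on top of Gfi1 with Pou4f3. Sox11 differed by -1.76 when Gfi1 was added to Pou4f3 and by 1.75 when Atoh1 was added to Gfi1 with Pou4f3, and these were -0.98 and 0.98 with all untreated libraries as one control. Sox9 differed by -1.56 and -2.11 when Pou4f3 was added to Atoh1 and to Gfi1 with Atoh1, and by -1.76 between iGPA and iAtoh1. Of 18 alternatives, 11 lost the call for Sox9 with Pou4f3 on top of Atoh1 and 3 that on top of Gfi1 with Atoh1. For Sox1, 7 lost that of Gfi1 on top of Pou4f3 with Atoh1, and 9 that of Atoh1 on top of Gfi1 with Pou4f3. For Sox10, 9 lost that of Gfi1 on top of Atoh1, and 3 that of Atoh1 on top of Gfi1 with Pou4f3. The other calls in this paragraph were kept in all 18. Groups of 2 libraries are too small for a test of single outlying libraries.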

How the results depend on the processing

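Of the 52 effects of members that passed, 33 kept direction and call under every alternative other than leaving out a library, and 25 under those as well. The alternatives were run on 118 effects of members (all of those in the 7 lines and the 3 means, and the differences between lines that passed). With the replicate block 9 calls were gained and 1 was lost, all given in the text, and 108 of the 118 effects stayed on their side of the threshold. The block moved the count of members past the threshold downward in iAtoh1 from 0 to 1. One call changed direction: Sox9 in iG+A was -0.02 with all untreated libraries as one control. With only the groups compared, calls in a line were lost for Sox2 (iG+A and iP+A), Sox10 (iGfi1 and iG+P), Sox4 (iPou4f3), Sox8 (iG+P), Sox9 (iG+A) and Sox12 (iP+A), and with one control also for Sox2 in iP+A (-1.60, adjusted p = 0.0574). In 72 cases the sign changed with no call in either fit.

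Without a fold limit, the counts past the threshold upward were 3 in iAtoh1, 1 in iPou4f3, 5 in iG+A, 3 in iP+A, 3 in iGPA and 4 for Atoh1 added, and downward 2 in iGfi1, 2 in iG+P, 2 in iP+A, 1 in iGPA, 2 for Gfi1 added and 1 for Pou4f3 added. With a limit of 1 they were 2 upward in iAtoh1 and iP+A and 3 for Atoh1 added, and downward 1 in iGfi1, 2 in iG+P, 2 in iP+A, 1 in iGPA and 1 for Pou4f3 added. The 1 member upward in iGfi1 (Sox10) became 0 with a pseudocount of 5, no filter, quantile normalization, no trend, all untreated libraries as one control, and only the groups compared. Quantile normalization gave 1 downward in iG+P and in iGPA. One control of all untreated libraries gave 2 upward and 0 downward in iP+A and 1 downward in iGPA. Only the groups compared gave 1 downward in iAtoh1, 0 downward in iG+A and iP+A, and 0 upward in iG+P. Dox libraries only gave 1 upward for Atoh1 added. In each case the cause was not tested.

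Leaving out single libraries gave 1 to 2 upward in iAtoh1 (2 without Dox replicate 1), 0 to 1 upward in iGfi1 (0 without Ctrl replicate 2 or either Dox library), 0 to 1 downward in iG+A (0 without Ctrl replicate 2 or Dox replicate 1) and 0 to 1 upward and 0 to 1 downward in iG+P (changed without Ctrl replicate 2 or Dox replicate 1). In iP+A it gave 0 to 1 upward and 0 to 2 downward (0 without Ctrl replicate 2 or Dox replicate 1, and 2 downward without Ctrl replicate 1), and in iGPA 0 to 1 downward (1 without Dox replicate 1). Over all genes, the count past the threshold was 910 in iAtoh1 and 563 with only the groups compared, 350 and 135 in iPou4f3, and 811 in iGfi1 and 514 without Dox replicate 1. Rescaling moved the median of all genes by at most 0.07. Low counts limit Sox10 and Sox1 before Dox, where a few reads set the fold change.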

Other observations

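A further 9 Sox genes were in the table, and the SoxF genes Sox7 and Sox18, known from endothelium, rose in the same lines as Sox1. Sox18 was at 317 and 342 normalized counts in iG+A Ctrl and 1747 and 2847 in Dox (2.76, SE 0.48, limma adjusted p = 0.00019), and at 178 and 268 in iGPA Ctrl and 1155 and 2371 in Dox (2.91, adjusted p = 7.92e-05). Sox7 was at 281 and 439 in iG+A Ctrl and 1369 and 2008 in Dox (2.24, adjusted p = 6.02e-05), and at 398 and 317, then 934 and 1406 in iGPA (1.69, adjusted p = 0.000646). In iGPA the endothelial gene Pecam1 fell from 2828 and 2469 to 487 and 992, while the other endothelial genes of the list used above were not past the threshold there. Sox17, the third SoxF gene, fell in iG+P, from 436 and 374 to 78.4 and 50.9 (-2.66, adjusted p = 0.000247), and in iGfi1, from 334 and 316 to 126 and 104 (-1.49, adjusted p = 0.0261).

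Sox14, a SoxB2 gene of neuronal populations, was at 0 to 6.89 in Ctrl libraries and higher wherever Gfi1 was induced with another factor, at 120 and 102 in iG+A Dox, 58.9 and 36.1 in iG+P Dox and 126 and 156 in iGPA Dox. In iGfi1 Dox it was at 10.8 and 1.27, and in the Dox libraries of the lines without Gfi1 at 0 to 7.26. It passed the filter on low values through the groups in which it was high, so no test is drawn on it. Among the SoxD genes, Sox5 fell in iGPA, from 624 and 746 to 142 and 202 (-2.0, adjusted p = 0.000445), and also in iG+A (-1.41, adjusted p = 0.0086) and iGfi1 (-1.4, adjusted p = 0.0144). Sox6 fell by 1.4 on the log2 scale in iG+P and in iGfi1 (-1.04, adjusted p = 0.0297) and rose by 1.20 in iAtoh1. Sox13 rose by 0.88 in iG+A and fell in iAtoh1 (-0.73), iG+P (-0.78), iP+A (-0.64) and iGPA (-0.60). Sox15 fell in iAtoh1, from 142 and 128 to 55.5 and 32.3 (-1.65, adjusted p = 0.0396), and in iP+A, from 60.5 and 270.0 to 37.0 and 33.5 (-1.83, adjusted p = 0.0217). Sox30 was at 7.22 to 29.5 in all libraries.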
